A study of Rattus norvegicus with 3 samples.

Results

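The creatine kinase and adenylate energy transfer system is described here through 7 genes, out of 15168 genes with a named probe on the arrays. They were chosen by name, as the genes Ckm, Ckmt2, Ckb, Slc6a8, Ak1, Ampd1 and Ampd3. All 7 were found, each through 1 probe whose RefSeq accession carries the symbol, and all were well above background on every array. The study measured messenger RNA in calf muscle of male rats aged 12 weeks (strain Wistar Honnover) on 3 one-colour Agilent arrays. The first held normal soleus, a slow postural muscle, and another held normal plantaris, a faster neighbour, both from untreated rats. The remaining array held soleus taken 28 days after a stretch of about 5 mm was cut from the left sciatic nerve. How many rats stand behind an array, and whether their RNA was pooled, is not stated in the sources used here, and nothing says that the normal muscles came from the same rat.

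A muscle fibre spends ATP faster than its mitochondria can deliver it, and creatine kinase and adenylate kinase bridge the gap. Creatine kinases move phosphate between ATP and creatine, so that phosphocreatine buffers ATP at the myofibrils and the calcium pump and carries phosphate out from the mitochondria. Adenylate kinase recovers ATP from ADP and leaves AMP, which AMP deaminase turns into IMP, the entry to the purine nucleotide cycle. Fast fibres are known for high activity of the cytosolic arms, and slow fibres for relying more on the mitochondrial one.

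With 1 array per muscle state nothing can be tested across animals, and each value describes its array. Levels are written as scaled signal, the processed signal of a spot divided by the signal at the 75th percentile of its array. Differences between arrays are log2 folds, where 1 unit is 2-fold, and the error after ± is that of the scanner software for the 2 arrays compared. A gene is counted as higher or lower when it is at least 2-fold apart, which is a rule of size and not a test. Levels of different probes are not compared with each other, because probes differ in how brightly they report their RNA.

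The normal muscles share a slide and a scan and the denervated muscle has its own, so the effects of slide and of losing the nerve cannot be told apart. Muscle identity was checked on fixed markers. All 6 slow fibre markers were lower in plantaris than in normal soleus (median -2.68) and 6 of 7 fast fibre markers higher (median 7.22). Acta1, Des, Mb and Actn2, which mark muscle fibres, were well above background on each array. Of these, Actn2 was lower in plantaris, at -1.15 ± 0.20. Of the 7 fibre markers listed, 3 (Ttn, Neb and Tcap) had no named probe.

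In normal plantaris, 2 of the 7 genes were higher than in normal soleus, the adenylate kinase Ak1 and the muscle AMP deaminase Ampd1, and 1 was lower, the AMP deaminase Ampd3. Under quantile normalization 1 was higher and 1 lower. Over all 11015 genes measured in this comparison 5.71% were higher and 6.11% lower. After denervation 3 of the 7 were lower and none was higher. The 3 were the mitochondrial creatine kinase Ckmt2, the muscle-type creatine kinase Ckm and, just past the threshold, Ak1. That count was 1 under quantile normalization (Ckmt2) and 2 in the authors' deposited table. Over all 11318 genes measured there 13.4% were lower and 8.73% higher (1518 and 988 genes), a split that turned to 1107 lower and 1568 higher in the authors' deposited table. The median fold of the 7 was 0.13 in plantaris and -0.50 after denervation, against 0.02 in each comparison for all genes.

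**Figure D1:**
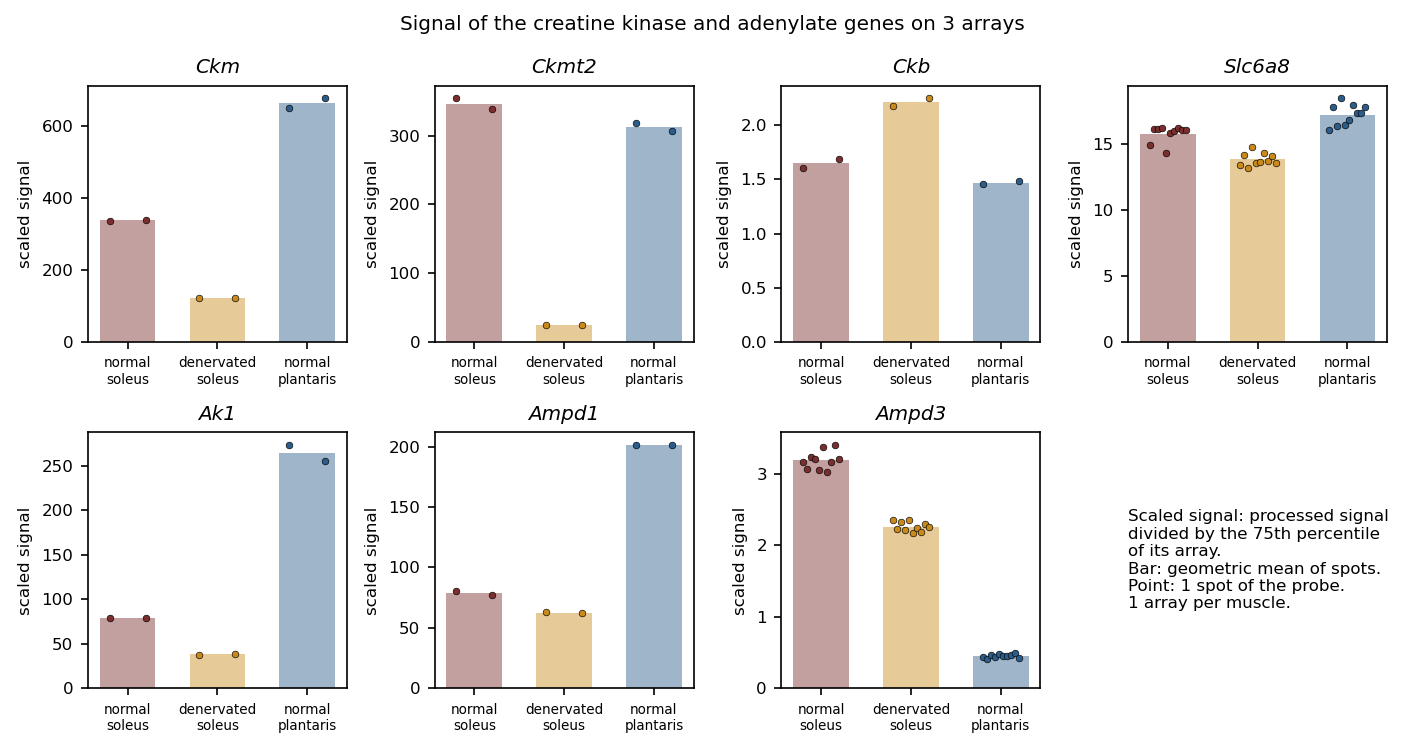
Scaled signal (vertical axis, linear from 0) of each gene on the normal soleus, denervated soleus and normal plantaris arrays, with points for the spots of the probe and bars for their geometric mean. Ckmt2 stands at 24.4 on the denervated array against 347 and 313 on the normal ones, and Ampd3 at 0.449 in plantaris against 3.19 and 2.26.

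Ckm encodes the muscle-type cytosolic creatine kinase, part of which sits on the M-line of the sarcomere. Its probe (A_64_P155925, designed to NM_012530) read 337 and 339 on its 2 spots in normal soleus, 121 and 121 in denervated soleus, and 650 and 678 in plantaris. The 3 arrays were ordered plantaris, normal soleus, denervated soleus, with no overlap of spots. Plantaris exceeded normal soleus by 0.97 ± 0.20, a 1.96-fold difference that falls just short of the threshold and passes it at 1.04 when arrays are centred on their median. Denervated soleus had a log2 fold of -1.48 ± 0.20 over normal soleus, a 2.79-fold lower level. Under quantile normalization that fold was -0.86, inside the threshold. The processed signal lay at 39.3% of the scanner's saturation value in normal soleus and at 63.5% in plantaris, and no spot was flagged as saturated.

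Ckmt2 encodes the sarcomeric mitochondrial creatine kinase, which sits between the mitochondrial membranes and passes phosphate from newly made ATP to creatine. Its probe (A_42_P615837, designed to NM_001127652) read 355 and 339 in normal soleus, 24.4 and 24.5 in denervated soleus, and 318 and 307 in plantaris. The normal muscles lay close together and the denervated one far below both. Plantaris and normal soleus differed by less than the scanner error (-0.15 ± 0.20), although quantile normalization gave -0.70. After denervation the log2 fold was -3.83 ± 0.20, a 14.2-fold lower level, and of the 11318 genes measured 39 had a lower fold. Across the alternatives tried it ranged from -3.86 to -3.44.

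The 2 muscle creatine kinases therefore differed in how far each stood from normal soleus. After denervation the fold of Ckmt2 was 5.08-fold lower than that of Ckm (difference -2.34 ± 0.29 in log2 units), and this difference ranged from -2.58 to -2.33 over the ways of processing. In plantaris the fold of Ckm exceeded that of Ckmt2 by 1.12 ± 0.29, with a range of 1.12 to 1.39. A difference between 2 folds on the same arrays does not move with the centring of an array.

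Ckb encodes the brain-type cytosolic creatine kinase, found in nerve, smooth muscle and immature muscle. Its probe (A_44_P264299, designed to NM_012529) read 1.61 and 1.69 in normal soleus, 2.18 and 2.25 in denervated soleus, and 1.45 and 1.49 in plantaris. The denervated array was the highest, by 0.43 ± 0.20 over normal soleus, and the normal muscles differed by less than the scanner error (-0.16 ± 0.20). Neither difference reached 2-fold, and Ckb was the only one of the 7 genes with a fold above 0 after denervation as arrays were centred here. Smooth muscle and pericyte markers, cells that also make Ckb, had 1 of 6 members lower and none higher on the denervated array, with a summed scaled signal of 7.88 in normal soleus, 5.85 in denervated soleus and 6.47 in plantaris. Schwann cell and nerve markers had 2 of 8 higher and 4 lower, and summed to 7.05, 10.1 and 6.74 in the same order. Their part in the Ckb values was not tested.

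Slc6a8 encodes the creatine transporter of the cell membrane, which supplies the creatine that fibres do not make themselves. Its probe (A_42_P781006, designed to NM_017348) was printed on 10 spots. The lowest, median and highest spot read 14.3, 16.1 and 16.3 in normal soleus, 13.2, 13.7 and 14.8 in denervated soleus, and 16.1, 17.4 and 18.5 in plantaris. As arrays were centred here, the spots of normal soleus overlapped those of each other array, while denervated soleus and plantaris did not overlap. Before centring the order of denervated soleus and plantaris was reversed, with mean processed signals of 16896 and 12858. The folds were 0.13 ± 0.20 in plantaris and -0.19 ± 0.20 after denervation, each inside the scanner error. Their signs are not settled, since quantile normalization gave -0.02 and 0.14, in that order.

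Promoter sequences were looked up for the 7 genes in the RefSeq table (build GRCr8), which matched 5 of them. The 250 bases before the start are shown for the 3 creatine kinases, because Ckm and Ckmt2 were lower after denervation and Ckb was not, and for Ampd1, the matched gene that was higher in plantaris. They run 5′ to 3′ on the gene's strand, and capitals mark each CANNTG, the E-box core bound by myogenic factors such as MyoD, which reads the same on both strands.
Ckm, chr1:88189211-88189460 (+): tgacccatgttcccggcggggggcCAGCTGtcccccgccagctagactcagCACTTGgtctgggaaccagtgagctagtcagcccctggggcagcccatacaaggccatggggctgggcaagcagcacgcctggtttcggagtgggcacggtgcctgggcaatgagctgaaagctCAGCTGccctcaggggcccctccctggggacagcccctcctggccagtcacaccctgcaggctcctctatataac
Ckmt2, chr2:24845512-24845761 (-): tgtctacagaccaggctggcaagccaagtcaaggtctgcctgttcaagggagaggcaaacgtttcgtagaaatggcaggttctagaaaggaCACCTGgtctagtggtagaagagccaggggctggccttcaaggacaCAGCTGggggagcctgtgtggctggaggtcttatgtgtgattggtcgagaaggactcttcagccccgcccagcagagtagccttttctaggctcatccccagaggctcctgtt
Ckb, chr6:136553465-136553714 (-): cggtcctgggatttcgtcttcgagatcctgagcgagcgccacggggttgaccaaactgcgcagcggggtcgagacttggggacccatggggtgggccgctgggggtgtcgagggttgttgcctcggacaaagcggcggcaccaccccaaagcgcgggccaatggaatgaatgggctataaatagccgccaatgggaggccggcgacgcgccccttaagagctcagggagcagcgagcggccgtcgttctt
Ampd1, chr2:193287082-193287331 (+): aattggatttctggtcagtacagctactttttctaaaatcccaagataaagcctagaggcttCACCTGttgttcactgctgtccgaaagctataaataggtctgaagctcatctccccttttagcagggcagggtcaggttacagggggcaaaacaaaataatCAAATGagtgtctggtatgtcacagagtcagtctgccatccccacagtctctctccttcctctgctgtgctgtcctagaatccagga

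The Ckm window held 3 E-box cores, beginning 226, 199 and 75 bases before the start, and the Ckmt2 window 2, at 159 and 113. The Ckb window held 0, and Ampd1, also not 2-fold lower after denervation, had 2, at 188 and 87. Slc6a8, matched but not shown, was not 2-fold lower after denervation either, and had 1, at 35. Such a core is common, being present in 65.6% of all 33465 promoter windows of this length, and 11.6% held 3 or more. The consensus for MEF2, a muscle transcription factor, matched once in Ckb, 76 bases before the start, and once in Ampd1, at 161. It had no match in Ckm, Ckmt2 or Slc6a8, and 2.96% of all windows held a match. In Ckb and Ampd1 the match does not overlap an E-box core. These matches describe letters in a window and say nothing of what binds there.

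Ak1 encodes the cytosolic adenylate kinase of muscle, which turns a pair of ADP molecules into ATP and AMP. Its probe (A_42_P835462, designed to NM_024349) read 79.1 and 78.6 in normal soleus, 37.3 and 39.0 in denervated soleus, and 273 and 255 in plantaris. The arrays kept the order seen for Ckm, with plantaris highest and denervated soleus lowest and no overlap. Plantaris stood 1.74 ± 0.20 above normal soleus, or 3.35-fold, and 198 of 11015 genes had a higher fold. Denervated soleus had a log2 fold of -1.05 ± 0.20. That value lies within its error of the threshold and was -0.62 under quantile normalization and -0.80 in the authors' deposited table.

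Ampd1 encodes the AMP deaminase of adult muscle fibres. Its probe (A_44_P276087, designed to NM_138876) read 80.3 and 77.1 in normal soleus, 63.3 and 62.1 in denervated soleus, and 202 and 201 in plantaris. Plantaris was the highest, by 1.36 ± 0.20 or 2.56-fold, which was 0.84 under quantile normalization. The soleus arrays lay close together, with a fold of -0.33 ± 0.20 after denervation that turned to 0.15 under quantile normalization. Ampd1 thus stayed within 2-fold on an array where Ckm was 2.79-fold lower, and its fold exceeded that of Ckm by 1.15 ± 0.29.

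Ampd3 encodes the AMP deaminase first known from red blood cells, which other tissues also make. Its probe (A_42_P610788, designed to NM_031544) was printed on 10 spots. The lowest, median and highest read 3.03, 3.18 and 3.40 in normal soleus, 2.17, 2.25 and 2.36 in denervated soleus, and 0.408, 0.448 and 0.491 in plantaris. Normal soleus was highest and plantaris lowest, and no spot of 1 array reached the range of another as arrays were centred here. Before centring the spots of the soleus arrays overlapped, with mean processed signals of 2881 in normal and 2753 in denervated soleus. Plantaris stood at -2.83 ± 0.20, or 7.09-fold lower, and 58 of 11015 genes had a lower fold. After denervation the fold was -0.50 ± 0.20, inside the threshold, and -0.25 in the authors' deposited table. The denervated soleus lay 2.33 ± 0.20 above plantaris.

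The 2 AMP deaminases thus stood on opposite sides of normal soleus in the fast muscle. The fold of Ampd1 exceeded that of Ampd3 by 4.18 ± 0.29 (range over the ways of processing 3.69 to 4.18). Ampd2, the remaining AMP deaminase gene, had a fold of -0.06 ± 0.24 in plantaris and 0.48 ± 0.23 after denervation. Red blood cell markers, which mark cells with Ampd3, had 0 of 4 members past 2-fold in plantaris (median -0.46) with a summed scaled signal of 262 in normal soleus and 181 in plantaris. Their part in the Ampd3 value was not tested.

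**Figure D2:**
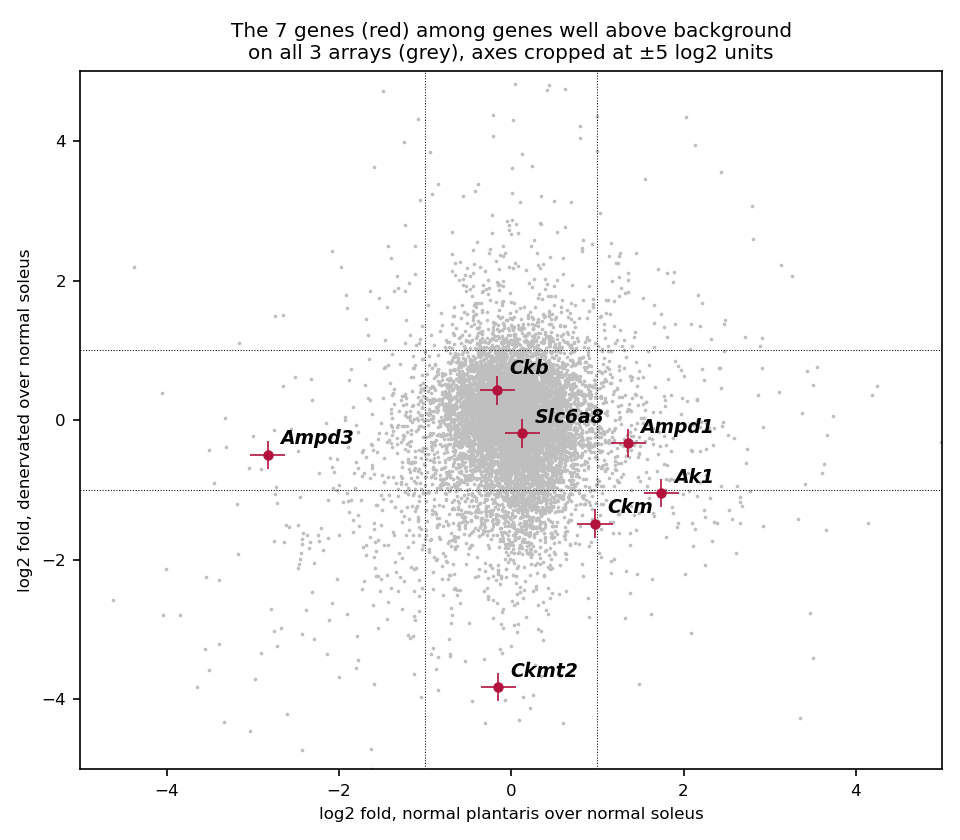
Log2 fold in plantaris (horizontal) against log2 fold after denervation (vertical), both over the same normal soleus array, for the 7 genes (red, bars are scanner errors) and other genes well above background on all 3 arrays (grey); dotted lines mark 2-fold. Ampd3 lies far left at -2.83, Ckmt2 far down at -3.83, and Ak1 at 1.74 and -1.05, while Ckb and Slc6a8 lie near the centre.

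The folds of both comparisons are taken over the same normal soleus array, so they are read side by side and not correlated. Ckm and Ak1 shared a pattern, above normal soleus in plantaris and below it after denervation. Ampd1 had the same order beyond the scanner error, but its fold after denervation was small (-0.33) and turned to 0.15 under quantile normalization. Ampd3 was below normal soleus in both, and Ckmt2 was near it in plantaris only.

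Other genes with the most similar pair of folds were looked up among 9855 genes well above background on all 3 arrays, by the Euclidean distance in log2 units over these 2 folds. Nearest to Ckm were Spdya (distance 0.05), Adap1 (0.05) and Tbx1 (0.08). Nearest to Ak1 were Tpi1, the triosephosphate isomerase of glycolysis (0.07), Mylk2, the skeletal myosin light chain kinase (0.16), and Ifna4 (0.20). Nearest to Ampd1 were Pfkfb3 (0.03), Prkaa2, a catalytic subunit of AMP-activated kinase (0.07), and Hpn (0.07). Within 0.3 log2 units of Ckm, Ak1 and Ampd1 lay 19, 11 and 48 genes, in that order. The distances printed for these members do not exceed the scanner error of a single fold, so the ranking is not resolved. Spdya, Pfkfb3 and Hpn were also faint, with scaled signals of 0.083, 0.071 and 0.036 in normal soleus. Ckmt2 and Ampd3 had few neighbours, and some of the nearest were faint on the array farthest from normal soleus. Scaled signals in denervated soleus were 0.039, 0.035 and 0.049 for C16h13orf46, Opn4 and Dhrs11, near Ckmt2. Ceacam16, near Ampd3, read 0.029 in plantaris. Within 0.3 log2 units lay 1 gene for Ckmt2 (C16h13orf46, at 0.20; then Opn4 at 0.32 and Dhrs11 at 0.36) and 2 for Ampd3 (Cd6 at 0.22 and Slc2a13 at 0.29; then Ceacam16 at 0.32). For Ckb and Slc6a8 the same radius held 1287 and 1389 genes, so their nearest ones (Kif22, Baz1b and Cdv3 for Ckb, and Med8, Fermt2 and Ostc for Slc6a8) do not single out a pattern. With 3 arrays, this likeness rests on 2 differences.

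Genes that work with these enzymes were followed as a list of 49, of which 43 had a named probe and 42 were measured in each comparison. In plantaris 6 were higher and 2 lower (14.3% and 4.76%, median 0.13), or 6 and 1 with centring on the median. After denervation 4 were higher and 9 lower (9.52% and 21.4%, median -0.27), or 6 and 8 under quantile normalization and in the authors' deposited table. With normexp background the counts there were 1 and 8, and with both arrays well above background 2 and 9. The shares of all genes past 2-fold are those given above. The list holds 7 groups, given here in the order of the pathway.

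**Figure D3:**
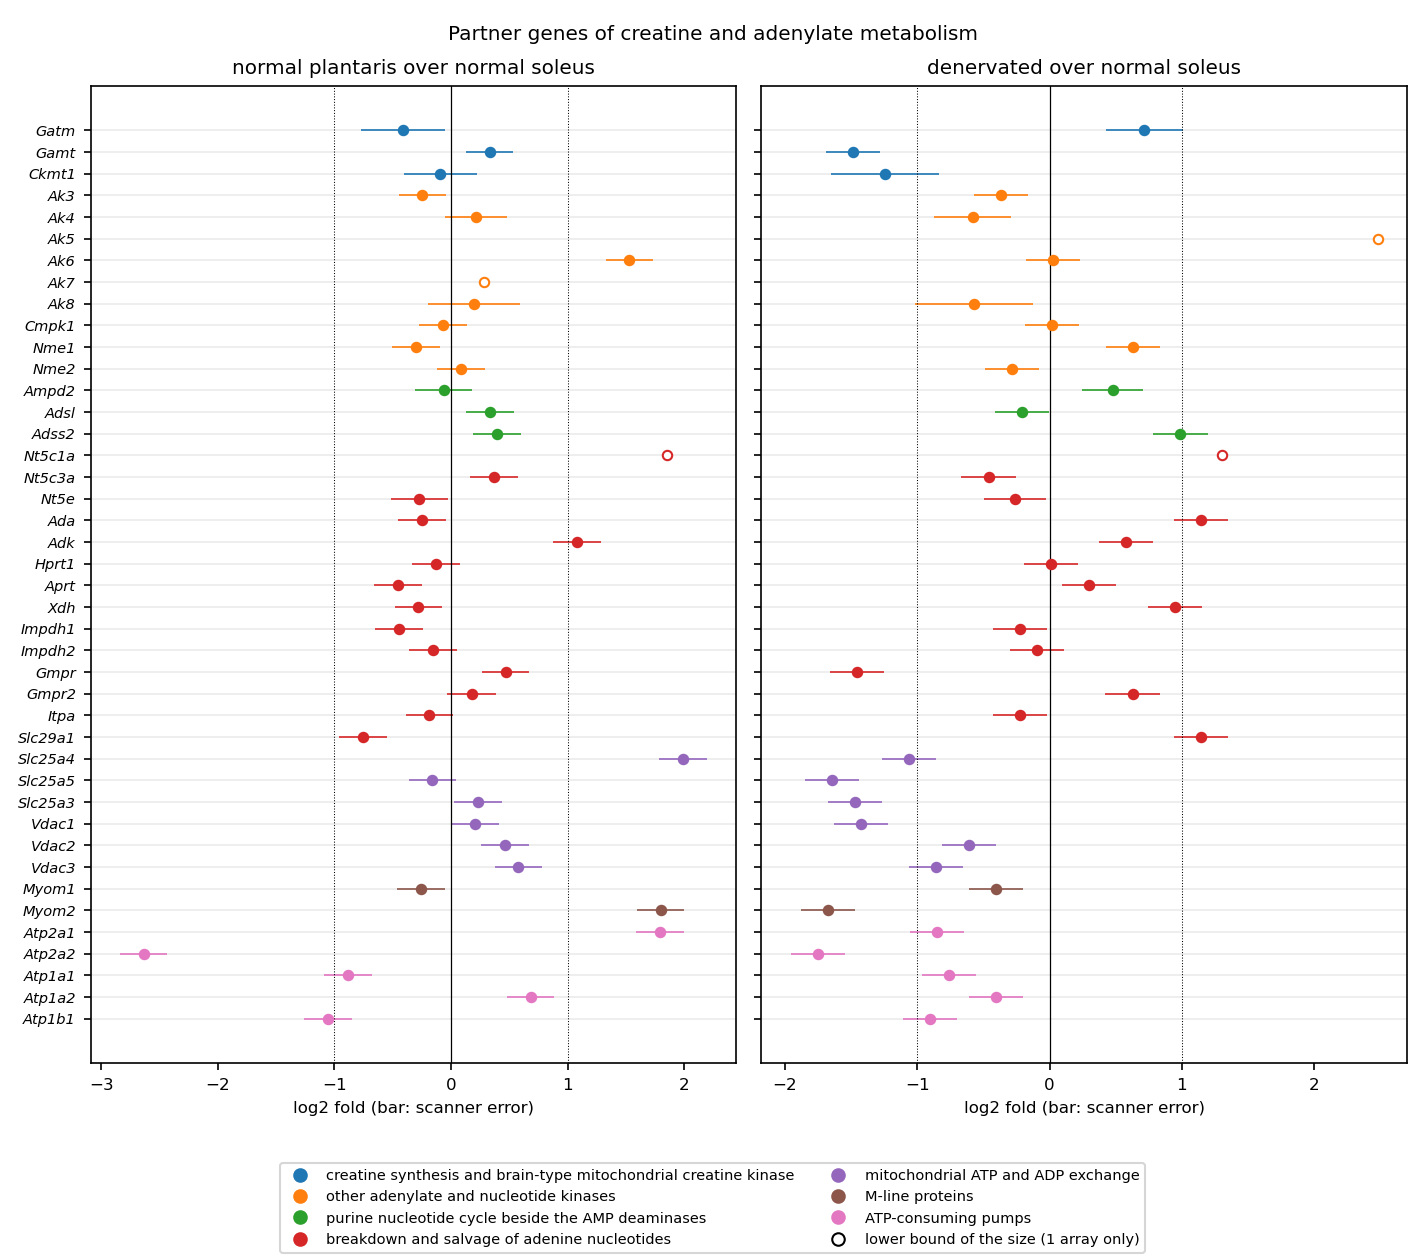
Log2 folds (horizontal) of the partner genes named here, coloured by group, in plantaris (left) and after denervation (right) over normal soleus, with scanner errors as bars, open circles for bounds and dotted lines at 2-fold. The 6 genes of mitochondrial ATP and ADP exchange all lie below 0 on the right, from -1.64 to -0.61.

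Creatine synthesis and the ubiquitous mitochondrial creatine kinase had 0 of 3 genes past 2-fold in plantaris and 2 lower after denervation. Gamt, the methyltransferase that completes creatine, stood at -1.48 ± 0.20 after denervation. Ckmt1, the mitochondrial creatine kinase of non-muscle tissue, stood at -1.24 ± 0.41 from a faint signal and at -0.62 with normexp background. Gatm, the first enzyme of creatine synthesis, gave 0.71 ± 0.29 on its brighter probe and -0.77 on the other.

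Mitochondrial exchange of ATP and ADP had 4 of 6 genes lower after denervation (median -1.24). The phosphate carrier Slc25a3 stood at -1.47 ± 0.20, the outer membrane channel Vdac1 at -1.43 ± 0.20, and the adenine nucleotide translocator of muscle, Slc25a4, at -1.06 ± 0.20 (-0.74 under quantile normalization). Slc25a5, another translocator, was at -1.64 ± 0.20 on its brighter probe and 0.47 on the other. The fold of Ckmt2 was below all 6, with a difference of -2.76 ± 0.29 from that of Slc25a4. In plantaris Slc25a4 was the 1 gene of the group past 2-fold, at 1.99 ± 0.20.

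Ckmt2 was also set beside oxidative phosphorylation genes, by a rule made after its value was seen, namely all symbols that begin with Nduf, Sdh, Uqcr, Cox or Atp5. Of 90 such genes measured after denervation 59 were at least 2-fold lower and 0 higher, with a median of -1.18. The lowest of them, Ndufb5, stood at -2.03, and 0 of the 90 had a fold below that of Ckmt2. In plantaris the median of the same genes was 0.13.

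Among the other adenylate and nucleotide kinases, 1 of 9 measured genes was higher in plantaris and 1 higher after denervation. Ak6 stood at 1.53 ± 0.20 in plantaris and 0.02 after denervation. Ak5 was well above background on the denervated array only, at least 2.48 higher there, a bound that was 0.53 with normexp background. Ak3, a mitochondrial adenylate kinase, stayed within 2-fold in both comparisons, with folds of -0.25 in plantaris and -0.37 after denervation.

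Next to the AMP deaminases, the purine nucleotide cycle genes Adsl and Adss2 stayed within 2-fold. Adss2 came nearest, at 0.99 ± 0.20 after denervation, and passed 2-fold at 1.23 in the authors' deposited table. The muscle form Adss1 had no named probe and was not analysed here.

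In the breakdown and salvage group 2 of 14 genes were higher in plantaris and none lower, and 3 were higher and 1 lower after denervation. Ada, which deaminates adenosine, stood at 1.15 ± 0.21 after denervation (0.93 with normexp background), and the nucleoside transporter Slc29a1 at 1.14 ± 0.20. Gmpr, the GMP reductase, stood at -1.45 ± 0.20. Nt5c1a, a cytosolic AMP nucleotidase, was not well above background in normal soleus. It was at least 1.86 higher in plantaris and at least 1.30 higher after denervation, bounds that were 0.72 and 0.31 with normexp background. Adk, the adenosine kinase, was higher in plantaris at 1.08 ± 0.20 (0.95 with normexp background).

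Of the M-line genes, Myom2 followed the order of Ckm, at 1.80 ± 0.20 in plantaris and -1.68 ± 0.20 after denervation, whereas Myom1 stood at -0.26 and -0.41. Among the pumps that spend ATP, Atp2a1, the calcium pump of fast fibres, stood at 1.79 ± 0.20 in plantaris and -0.85 ± 0.20 after denervation. Atp2a2, that of slow fibres, stood at -2.64 ± 0.20 and -1.75 ± 0.20. Atp1b1, a subunit of the sodium pump, was lower in plantaris at -1.06 ± 0.20, or -0.99 with centring on the median.

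Muscle tissue holds other cells, and in bulk RNA fewer fibres and less RNA per fibre cannot be told apart. On the denervated array 3 of 4 fibre markers were lower (median -1.48). The count was 2 of 4 under quantile normalization (median -1.15) and in the authors' deposited table (median -1.24). Of these markers Acta1, the skeletal actin, stood at -2.44, Actn2 at -1.75, Des at -1.21 and Mb, myoglobin, at -0.18. Their summed scaled signal was 1087 in normal soleus, 606 in denervated soleus and 1162 in plantaris. The fold of Ckm lay within the range of these 4, with a difference of 0.96 ± 0.29 from that of Acta1 and of -1.30 ± 0.29 from that of Mb. Markers of fibre type differed on the denervated array too. Of the slow fibre markers 5 of 6 were lower there (median -1.35), which was 1 of 6 under quantile normalization (median -0.72), 4 with normexp background and 3 in the authors' deposited table, and their summed scaled signal was 2605 in normal soleus, 1155 in denervated soleus and 486 in plantaris. Of the fast fibre markers 4 of 7 were higher and none lower (median 1.30), counts that were the same in all 7 alternatives, and they summed to 308, 504 and 3404 in the same order. The 4 were Pvalb, the calcium buffer parvalbumin, at 6.02, Actn3, the fast-fibre actinin, at 5.15, and the fast myosin heavy chains Myh1 and Myh4 at 4.43 and 1.30. Adipocyte markers had 4 of 5 higher after denervation and summed to 15.4, 67.7 and 13.0 in that order, with Lep well above background on no array. Fibroblast and tendon markers had 2 of 9 higher and summed to 119, 271 and 212. The part of fibre type and of these cells in the lower values of Ckm, Ckmt2 and Ak1 was not tested.

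How the folds of the 7 genes move with the processing is shown gene by gene. Quantile normalization moved the bright probes most. It took Ckm and Ak1 inside 2-fold after denervation and Ampd1 inside 2-fold in plantaris, whereas Ckmt2 after denervation and Ak1 and Ampd3 in plantaris stayed past 2-fold in each of the 4 alternatives that can move them.

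**Figure D4:**
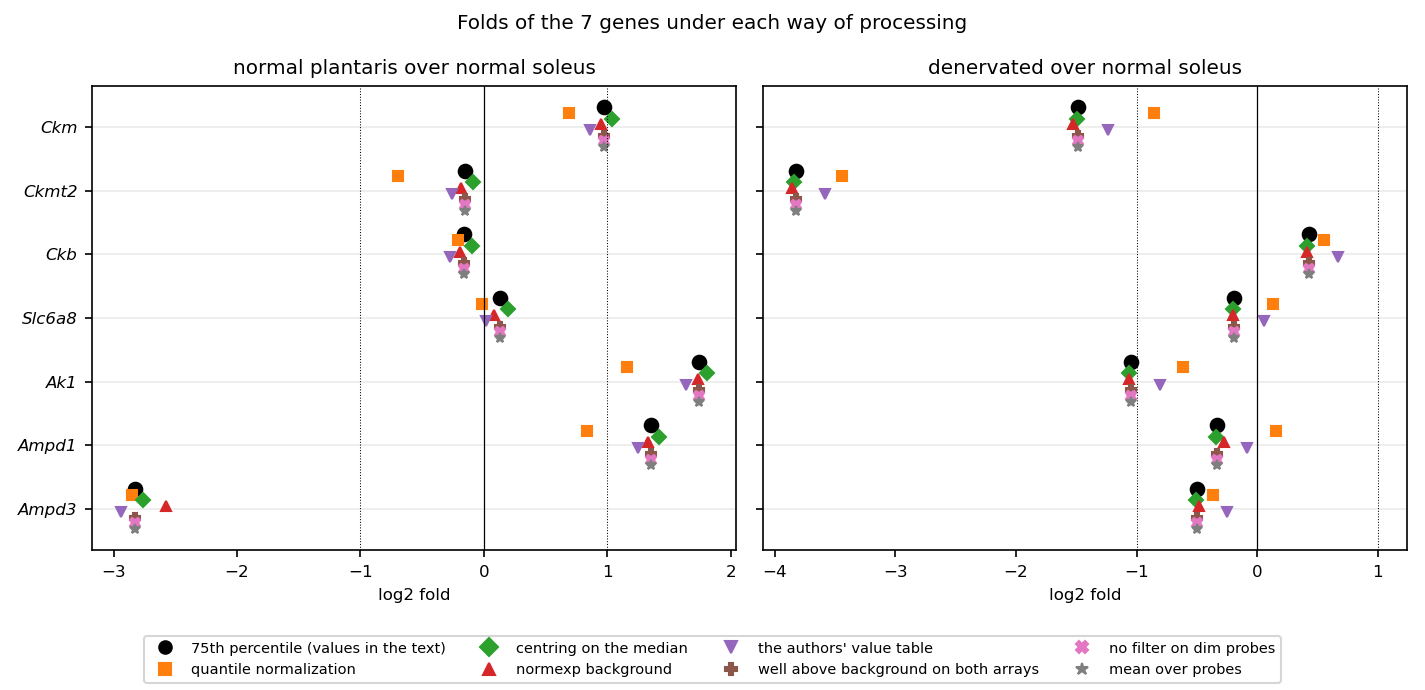
Log2 fold (horizontal) of each gene in plantaris (left) and after denervation (right) over normal soleus, with 1 symbol per way of processing and dotted lines at 2-fold. After denervation Ckmt2 stays between -3.86 and -3.44, while Ckm ranges from -1.52 to -0.86 and Ak1 from -1.06 to -0.62.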

How the data were processed

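Per the file headers, the spots were read with Agilent software (Feature Extraction, version 10.10.1.1), and the authors deposited a processed intensity per spot, background-subtracted and detrended, with its error and flags of 0 or 1, and no normalization between arrays. The authors' deposited value table is also an intensity. It equalled the processed signal times a factor, namely 1.60 (normal soleus), 1.41 (denervated soleus) or 1.80 (plantaris). The origin of the factors is not stated.

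Log2 processed signals were centred on each array at the 75th percentile over 58717 spots that are not controls. Outlier spots (467 to 569 per array) were left out, repeat spots averaged, and a probe taken as well above background where at least 50% of its spots were. Genes with several probes took the brightest. Genes well above background on at least 1 array of a comparison were measured. With 1 such array, the fold is a bound against the higher of the other array's signal and its faintest signal well above background. Of 30367 probes 18005 had a symbol through RefSeq accessions. The members and lists were chosen with earlier results of these data known. All 7 members are named, with list genes past 2-fold or with their list's largest folds. The values of 1 listed gene are not reported here, though the list counts include it. The steps were tested on spots simulated from the normal soleus levels and their repeat-spot noise. The simulation held no difference of animal, slide or signal scale, so it checks the calculation and not the folds reported here. Python 3.11.15, R 4.3.3 and limma 3.58.1 were used.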

Additional observations from a re-analysis of the deposited data

How the results depend on the processing

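The 7 folds in each comparison were recomputed in 7 ways (quantile normalization, centring on the median, normexp background, the authors' value table, 2 other filters on dim probes, and a mean over probes). Each of the 7 genes has 1 probe, well above background on every array, so the filters and the mean over probes, 3 of the 7 ways, return the same value. Of the 28 values per comparison that could move, 23 in plantaris and 16 after denervation moved by less than the scanner error, and 5 and 12 moved further. No fold past 2-fold changed sign. The count of genes past 2-fold after denervation, 3 of 7, was 1 under quantile normalization (Ckmt2) and 2 with the authors' values. In plantaris it was 2 to 4. For the partner list the sum of higher and lower genes stayed within 1.5 times, but the split did not. After denervation the count of higher genes, 4, was 1 with normexp background, 2 with both arrays well above background and 6 under quantile normalization and with the authors' values, and in plantaris the count of lower genes, 2, was 1 with centring on the median. Over all genes measured, the authors' values moved the median fold by -0.11 in plantaris and 0.24 after denervation, and quantile normalization moved the latter by 0.13. After denervation 988 genes were higher and 1518 lower, against 1568 and 1107 with the authors' values and 367 and 1001 with normexp background. In plantaris normexp background gave 309 higher and 282 lower, against 629 and 673. With both arrays well above background they were 439 and 433, and 668 and 1177 after denervation. Normexp was run on the spot median, a change made after seeing the data, because the spot mean is not in the files. No paired analysis was possible because each group has 1 array and the labels carry no replicate numbers, and no array could be left out. All 7 genes were far from the background, but normexp background moved Ampd3 in plantaris from -2.83 to -2.58. Among partner genes named as past 2-fold, it took Ckmt1, Ak5, Nt5c1a and Ada after denervation, and Nt5c1a and Adk in plantaris, inside 2-fold. Slide could not be fitted.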
